A study of Mus musculus with 32 samples.

Results

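The C/EBP genes measured here are Cebpa, Cebpb, Cebpd and Cebpg, 4 of the 20560 genes in the deposited table, found there by their symbols and followed over all 32 libraries. RNA was sequenced from 3T3-L1 cells, an established mouse preadipocyte line, during adipogenic differentiation. At each of days 0, 3, 7 and 11 there were 4 control libraries with a scramble hairpin, whose genotype is labelled WT, and 4 libraries with knockdown of Zbtb9, which encodes a BTB domain protein with zinc fingers. The knockdown libraries came from 2 shRNAs, named shRNA 1 and shRNA 2, with 2 libraries of each per day. All cells, control cells included, were induced at day 0, which was 2 days after confluence, with 1 µM dexamethasone, 0.5 mM isobutylmethylxanthine and 167 nM insulin; insulin alone was given from day 3, and no addition from day 7. The labels call the cells preadipocytes at day 0, premature adipocytes at days 3 and 7 and mature adipocytes at day 11. The titles call the replicates biological but name no separate cultures or clones, so p-values measure the spread between these libraries, which may be technical.

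C/EBPs are bZIP transcription factors that bind DNA as dimers, through a basic region for DNA contact and a leucine zipper for pairing. In 3T3-L1 differentiation Cebpb and Cebpd are known as early factors that respond to cAMP and to glucocorticoid, while Cebpa is a late factor that, together with PPARγ, maintains the adipocyte programme. C/EBPγ, the product of Cebpg, lacks the usual activation domain and acts mainly as a dimer partner of other C/EBPs and of ATF4.

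The promoters of the members are shown because the family is known for acting on its own genes and for cAMP control of Cebpb. Cebpa (ENSMUSG00000034957) spans chr7:35119293-35121928 on the plus strand in GRCm38, and Cebpg (ENSMUSG00000056216) spans chr7:35046422-35056573 on the minus strand, with 62719 bases between the ends of the 2 genes. Cebpb (ENSMUSG00000056501) spans chr2:167688915-167690418, and Cebpd (ENSMUSG00000071637) spans chr16:15887286-15891031, both on the plus strand. RefSeq promoter sequences (GRCm38.p6) were matched for 3 of the 4 members. The 250 bases before each RefSeq start, which for Cebpg is 35056566, read 5′ to 3′ on the strand of the gene, lie at chr7:35119043-35119292 for Cebpa, chr2:167688665-167688914 for Cebpb and chr7:35056567-35056816 for Cebpg. Capitals mark the CCAAT letters, the TGACG letters and the TTGCG letters on either strand.
Cebpa: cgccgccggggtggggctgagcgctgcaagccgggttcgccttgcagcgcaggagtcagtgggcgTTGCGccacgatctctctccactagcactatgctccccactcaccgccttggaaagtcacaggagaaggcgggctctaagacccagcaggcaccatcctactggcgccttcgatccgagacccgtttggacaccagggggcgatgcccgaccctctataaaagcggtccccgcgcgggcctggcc
Cebpb: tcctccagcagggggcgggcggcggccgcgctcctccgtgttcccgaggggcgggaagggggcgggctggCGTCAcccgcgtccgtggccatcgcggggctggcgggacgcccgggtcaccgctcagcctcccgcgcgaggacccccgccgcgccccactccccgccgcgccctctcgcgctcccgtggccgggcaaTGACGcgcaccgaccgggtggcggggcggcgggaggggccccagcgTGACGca
Cebpg: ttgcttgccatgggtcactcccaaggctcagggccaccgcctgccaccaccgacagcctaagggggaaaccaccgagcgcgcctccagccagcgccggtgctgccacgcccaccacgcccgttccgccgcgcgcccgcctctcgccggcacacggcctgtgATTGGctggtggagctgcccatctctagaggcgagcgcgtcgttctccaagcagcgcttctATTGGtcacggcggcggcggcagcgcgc

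In the Cebpa promoter TTGCG, the core of a C/EBP site, begins at position -185 from the start, and TATAAA begins at position -30. The Cebpb promoter holds TGACG, the core of a cAMP response element, at positions -53 and -7, and its complement CGTCA at position -180. Cebpg has neither run of letters. It holds CCAAT on the opposite strand, as ATTGG, at positions -89 and -28. Searched on both strands of 32851 promoter windows of the same kind, CCAAT was in 33.9%, TGACG in 17.8%, TTGCG in 14.5% and TATAAA in 12.4%. The full palindromes TTGCGCAA and TGACGTCA and the composite site ATTGCATCA, present in 0.164%, 1.55% and 0.167% of windows, were in none of the 3 member windows. GC content was 66.4% for Cebpa, 81.6% for Cebpb and 70.8% for Cebpg.

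Levels below are normalized reads, that is, reads rebuilt from the deposited values and divided by a size factor of the library, whereas differences and tests are on the deposited log2 scale. Libraries held from 22280363 to 31073726 reads in genes, and at day 11 all 4 knockdown libraries were shallower than all 4 control libraries. The targeted gene was covered by few reads, 6 to 23 in control and 0 to 17 in knockdown libraries, with a knockdown mean of 52.2% of control over all days. The arms were apart at days 0 and 7 and overlapped at days 3 and 11. With both hairpins in 1 group limma called Zbtb9 lower at day 7 alone (-0.35, SE 0.12, adjusted p = 0.0288); day 3 was under the filter on low values. For shRNA 1 it was not called on days 0, 3, 7 and 11 (adjusted p = 0.201, 0.160, 0.104 and 0.731), and shRNA 2 was called at day 11 alone (-0.49, adjusted p = 0.0214). The deposited log2 values are drawn towards a gene's mean where reads are few, so these differences are smaller than those in reads. In normalized reads the day 7 knockdown mean of Zbtb9 was 42.7% of control. The library labelled shRNA 1 replicate 2 at day 11 had 17 reads of Zbtb9, or 19.3 normalized reads, above 3 of the 4 control libraries of that day. Knockdown is therefore used here as the labels give it, and the day 11 differences of the members with both hairpins in 1 group are given with and without that library. In GENCODE M21, 84.4% of the exon bases of Zbtb9 are shared with Ggnbp1 on the same strand. Of 7 adipocyte markers at day 0, Adipoq, Plin1, Cidec and Cfd did not exceed 3.32 normalized reads in any library, while Fabp4, Pparg and Lpl had control means of 88.7, 779.7 and 18692.5. By day 7 the lowest control value of Adipoq was 1530.3.

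In control cells each member had its own course. Cebpb and Cebpg were highest at day 3, Cebpa was high at days 3 and 7, and Cebpd was highest at day 7. All 4 members rose from day 0 to day 3, a step at which 76.6% of the 13421 genes tested were called, where called means a limma p-value under 0.05 after Benjamini-Hochberg adjustment over all genes tested. Between days 0 and 11, where 64.6% of genes were called, 3 members were: Cebpa and Cebpb stood above day 0 at day 11, Cebpd stood below it, and Cebpg differed by 0.00 on the log2 scale (SE 0.04, adjusted p = 0.997).

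Cebpb, the early factor, had 6852, 4739, 7212 and 4932 normalized reads in control replicates 1 to 4 at day 0. At day 3, the end of induction, the values were 18240.5, 21141, 22504 and 18079. The ranges were far apart, and the mean rose 3.37-fold, or by 1.72 on the log2 scale (SE 0.17, adjusted p = 5.65e-07). After the change to insulin alone, Cebpb fell by 1.05 from day 3 to day 7 (SE 0.17, adjusted p = 7.9e-05). It then stayed near that level, with a difference of 0.10 from day 7 to day 11 and a 95% interval of -0.27 to 0.47. Control replicate 1 at day 7, with 6843 normalized reads against 9392 to 11493 in the others, was the low library of that group.

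Cebpd, the other early factor, followed a different course from Cebpb. Its control libraries held 1966 to 2506, 3493 to 4085, 4964 to 6357 and 1469 to 1707 normalized reads on days 0, 3, 7 and 11. These 4 ranges do not overlap. Cebpd rose by 0.75 to day 3 (SE 0.08, adjusted p = 2.32e-07) and by a further 0.54 to day 7 (SE 0.08, adjusted p = 1.26e-05), the interval in which Cebpb fell. From day 7 to day 11, after insulin was withdrawn, it fell by 1.77 (SE 0.08, adjusted p = 8.17e-12), to 0.278 of its day 7 mean. Its day 11 level was also under that of day 0, by a log2 difference of -0.48 (SE 0.08, adjusted p = 5.33e-05).

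Cebpa, the late factor, had 389 to 572 normalized reads in control cells at day 0. Its mean rose 2.88-fold to day 3, a log2 difference of 1.46 (SE 0.07, adjusted p = 1.29e-16). The further step to day 7 was small, 0.19 (SE 0.07, adjusted p = 0.0226), and the call was lost in 2 other fits and without control replicate 4 at day 3 or control replicate 3 or 4 at day 7. From day 7 to day 11 Cebpa fell by 0.93 (SE 0.07, adjusted p = 1.06e-11). At day 11 it remained above day 0 by 0.72 (SE 0.07, adjusted p = 1.32e-09).

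Cebpg, the dimer partner, rose by 0.70 to day 3 (SE 0.04, adjusted p = 3.68e-17). It fell by 0.51 to day 7 (SE 0.04, adjusted p = 3.11e-13) and by 0.20 to day 11 (SE 0.04, adjusted p = 0.000123). The control ranges were 1954 to 2137, 3305 to 3488, 2188 to 2497 and 2002 to 2142 normalized reads on days 0, 3, 7 and 11. Days 0 and 11 thus overlap, and days 3 and 7 stand above both. Of the 4 members, 4 were called from day 3 to day 7, where 74.2% of genes were, and 3 from day 7 to day 11, where 55% were. With libraries brought to equal totals the median over genes from day 0 to day 3 shifted by -0.13 in control cells, and the rises to day 3 were then 1.34 for Cebpa, 1.59 for Cebpb, 0.62 for Cebpd and 0.58 for Cebpg.

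**Figure D1:**
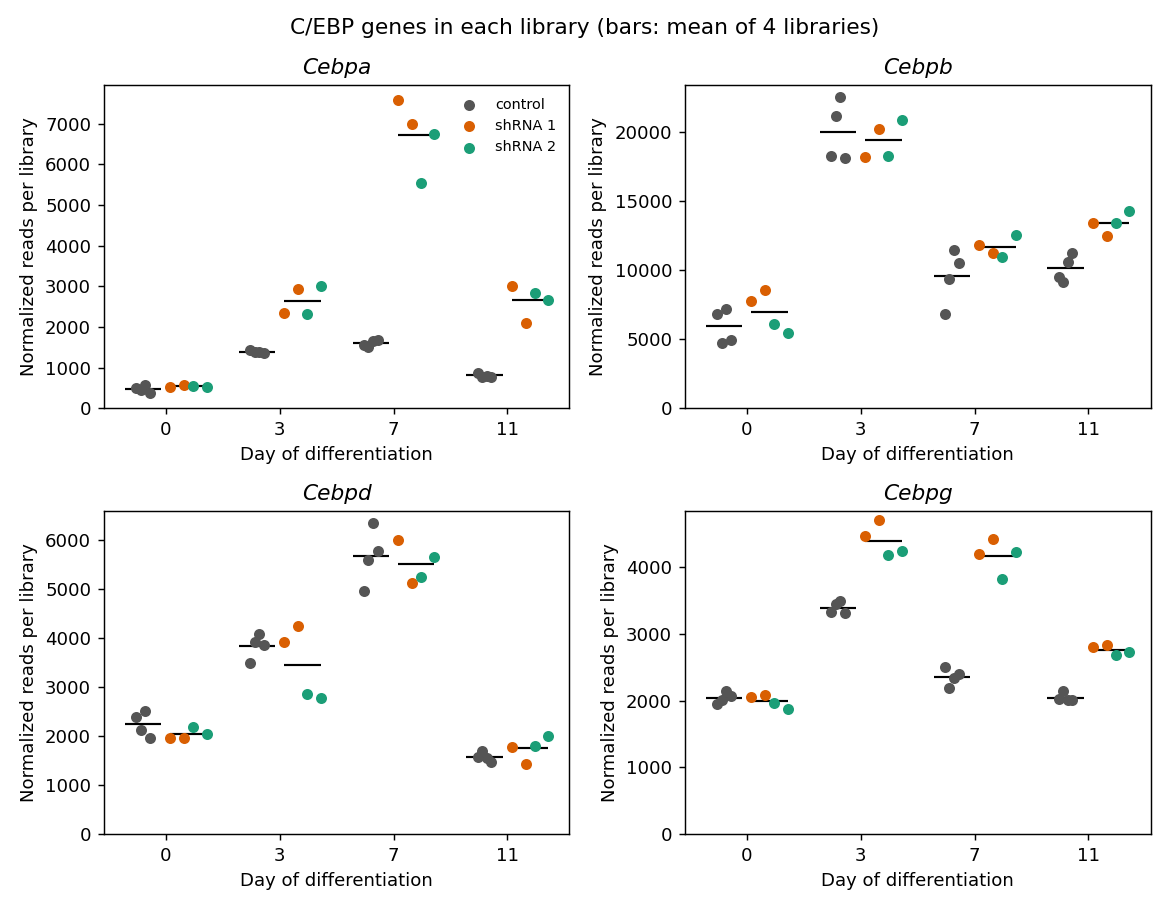
Normalized reads (y axis, linear, from 0) of each C/EBP gene in each of the 32 libraries by day of differentiation (x axis), with control libraries in grey, shRNA 1 in orange, shRNA 2 in green and bars at the mean of each 4 libraries. Knockdown libraries of Cebpa and Cebpg lie above control libraries at days 3, 7 and 11, and the shRNA 2 libraries of Cebpd lie below all others at day 3.

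In Zbtb9 knockdown cells Cebpa and Cebpg were higher than in control cells at days 3, 7 and 11, Cebpb was higher at day 11, and Cebpd was not called on any day with both shRNAs in 1 group. No member was called at day 0, where 3.25% of the 13216 genes tested were. At day 3 limma called 2 of the 4 members (26.7% of genes), at day 7 it called 2 (47.6%), and at day 11 it called 3 (33%). Every called member difference with both shRNAs in 1 group was towards higher levels in knockdown. In these bulk samples a larger share of differentiated cells and more RNA per cell cannot be told apart.

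At day 0 Cebpa had 515, 461, 572 and 389 normalized reads in control replicates 1 to 4, 537 and 578 with shRNA 1, and 560 and 521 with shRNA 2. The groups overlap. The log2 difference was 0.18, with a 95% interval of -0.04 to 0.40 (adjusted p = 0.339).

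At day 3 the Cebpa values were 1434, 1389, 1389.9 and 1373 in control, 2351 and 2938 with shRNA 1, and 2321 and 3005 with shRNA 2. The control libraries lay within a narrow band, and all 4 knockdown libraries were above it. The knockdown mean was 1.90 times the control mean, and the log2 difference was 0.88 (SE 0.08, limma adjusted p = 8.06e-06).

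At day 7 Cebpa was at its highest, with 7592 and 6991 normalized reads with shRNA 1 and 5543 and 6745 with shRNA 2, against 1551, 1504, 1651 and 1688 in control. Knockdown libraries lay far above control libraries, and shRNA 2 replicate 1, at 5543, was the lowest of them. The ratio of means was 4.202, and the log2 difference 1.99 (SE 0.08, adjusted p = 2.97e-10).

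At day 11 Cebpa had fallen in both arms, to 882, 777, 808 and 786 in control, 3016 and 2108 with shRNA 1, and 2845 and 2674 with shRNA 2. Knockdown libraries were again all above control libraries. The mean was 3.27 times that of control, a log2 difference of 1.63 (SE 0.10, adjusted p = 7.69e-07). Without the library labelled shRNA 1 replicate 2 at day 11, the day 11 difference was 1.73 for Cebpa, 0.41 for Cebpg and 0.43 for Cebpb (adjusted p = 7.01e-09, 6.94e-05 and 0.000646). For Cebpd it was 0.23 without that library and was then called (adjusted p = 0.0165), against 0.14 with it.

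Whether the knockdown effect on Cebpa changed between days was tested directly as an interaction over all 32 libraries. It was larger at day 3 than at day 0 by 0.70 (SE 0.14, adjusted p = 0.0022) and larger at day 7 than at day 3 by 1.11 (SE 0.14, adjusted p = 9.19e-07). From day 7 to day 11 it changed by -0.36, which was not called (95% interval -0.65 to -0.07, adjusted p = 0.0944). Without shRNA 2 replicate 1 at day 7 this last value was -0.45 and was called (adjusted p = 0.0287).

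Cebpg had 1954, 2011, 2137 and 2075 normalized reads in control at day 0, 2060.4 and 2089.99 with shRNA 1, and 1961 and 1882 with shRNA 2. These values overlap, and the log2 difference was -0.03 (95% interval -0.14 to 0.07, adjusted p = 0.749). At day 3 it had 3329, 3451, 3488 and 3305 in control, 4458 and 4702 with shRNA 1, and 4179.99 and 4245 with shRNA 2. Here the 2 arms were apart, by 0.36 (SE 0.05, adjusted p = 6.81e-05).

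At day 7 control values of Cebpg had dropped to 2497, 2188, 2338 and 2393, whereas knockdown values remained at 4188 and 4412 with shRNA 1 and 3824 and 4229 with shRNA 2. This was the widest gap for Cebpg, 0.79 (SE 0.06, adjusted p = 2.6e-08), or 1.77 times the control mean. At day 11 the control libraries had 2025, 2142, 2004 and 2002 and the knockdown libraries 2798, 2829.8, 2686 and 2725, again without overlap. The difference was 0.42 (SE 0.05, adjusted p = 4.96e-05).

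The effect on Cebpg increased from day 0 to day 3 by 0.39 (SE 0.07, adjusted p = 0.000278) and from day 3 to day 7 by 0.43 (SE 0.07, adjusted p = 1.26e-05). It decreased from day 7 to day 11 by a log2 difference of -0.37 (SE 0.07, adjusted p = 0.000256). Of the 4 members, Cebpa and Cebpg were the 2 called in the tests of day 3 against day 0, where 6.57% of 13571 genes were called, and of day 7 against day 3, where 23.1% were. Cebpg alone was called for day 11 against day 7, where 12.7% of genes were.

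Cebpb did not differ beyond the spread between libraries at the peak of its course. At day 3 the control values of 18240.5, 21141, 22504 and 18079 enclosed the values with shRNA 1, 18199.7 and 20176, and those with shRNA 2, 18272 and 20888. The log2 difference was -0.04 (95% interval -0.20 to 0.12, adjusted p = 0.727). At day 7 the knockdown libraries had 11803, 11269, 10959.5 and 12533.5 against 6843, 9392, 11493 and 10519 in control, and the difference of 0.30 was not called (95% interval -0.02 to 0.62, adjusted p = 0.116). Without control replicate 3 at day 7 it was 0.39 and called (adjusted p = 0.0282), and without control replicate 1 it was 0.15 and not called (adjusted p = 0.105).

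At day 11 Cebpb had 9477, 9177, 10571 and 11273 normalized reads in control, 13379 and 12494.5 with shRNA 1, and 13419 and 14273 with shRNA 2. Every knockdown library was above every control library. The difference was 0.39 (SE 0.07, adjusted p = 0.00149), a mean 1.32 times that of control. The effect on Cebpb did not change between neighbouring days by any called amount; the changes were -0.27, 0.34 and 0.10, with 95% intervals of -0.68 to 0.14, -0.07 to 0.75 and -0.31 to 0.50. Without single libraries they ran from -0.37 to -0.16, from 0.19 to 0.43 and from 0.0014 to 0.24, with no call; the ends of the last 2 ranges came without control replicates 1 and 3 at day 7.

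At day 3 Cebpd had 3493, 3923, 4085 and 3867 normalized reads in control and 3923 and 4243 with shRNA 1, but 2859 and 2789.9 with shRNA 2. The shRNA 2 libraries were below all other libraries of that day. In fits with 3 groups per day, Cebpd was lower with shRNA 2 than in control by a log2 difference of -0.43 (SE 0.05, adjusted p = 2.19e-08), while shRNA 1 differed from control by 0.09 (95% interval -0.01 to 0.19, adjusted p = 0.178). The difference between hairpins, shRNA 2 minus shRNA 1, was -0.51 (SE 0.06, adjusted p = 1.77e-08), at a day when 19.4% of 13264 genes were called between hairpins and Cebpd was the 1 member called.

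With both hairpins in 1 group the day 3 difference of Cebpd was -0.17 (SE 0.14, adjusted p = 0.421). It ran from -0.27 without shRNA 1 replicate 2 to -0.079 without shRNA 2 replicate 2, and was not called without any single library. As the mean of 2 separate shRNA groups it was the same size and called (adjusted p = 0.000887; 40.1% of genes called), since the gap between hairpins then leaves the error. At day 0 the difference was -0.13 (95% interval -0.29 to 0.03) and at day 7 it was -0.04 (95% interval -0.19 to 0.11). At day 11 Cebpd had 1585, 1707, 1549 and 1469 normalized reads in control, 1772 and 1442 with shRNA 1, and 1811 and 2013 with shRNA 2. The groups overlap in the shRNA 1 libraries, and the pooled difference was 0.14 (95% interval -0.05 to 0.34, adjusted p = 0.236). For shRNA 2 on its own it was 0.27 (SE 0.08, adjusted p = 0.0135), a call lost without shRNA 2 replicate 2 (0.19, adjusted p = 0.173), and the 2 hairpins differed by 0.25 (95% interval 0.05 to 0.44, adjusted p = 0.0624).

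For the other members the called differences from control had the same direction with both hairpins. Cebpa was higher by 0.88 with shRNA 1 and 0.88 with shRNA 2 at day 3, by 2.11 and 1.86 at day 7, and by 1.56 and 1.69 on day 11, and Cebpg by 0.42 and 0.30, 0.84 and 0.75, and 0.44 and 0.39 on the same days. Each of these 12 differences was called. Members were called for shRNA 1 at a count of 2, 2 and 3 of 4 on these days, where 39%, 51.6% and 43.2% of genes were, and for shRNA 2 at 3, 2 and 4 of 4, where 31%, 45.7% and 36.6% were. At day 0 no member was called for shRNA 1 (34.5% of genes), for shRNA 2 (17.4%) or between hairpins (34.7%), and at day 11 none was called between hairpins (21.7%). Between hairpins at day 7 Cebpa differed by -0.24 (SE 0.07, adjusted p = 0.0268; 16.2% of genes called), which rests on 2 libraries of each: it was -0.11 without shRNA 2 replicate 1 and -0.19 without shRNA 1 replicate 1, not called in either (adjusted p = 0.444 and 0.227). Cebpb at day 11 was higher by 0.35 with shRNA 1 (SE 0.07, adjusted p = 0.000979) and by 0.44 with shRNA 2 (SE 0.07, adjusted p = 0.000168). At day 0 its values with shRNA 1, 7763 and 8577 normalized reads, lay above those with shRNA 2, 6081 and 5476, and the difference of -0.48 was not called (95% interval -1.09 to 0.12, adjusted p = 0.191).

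**Figure D2:**
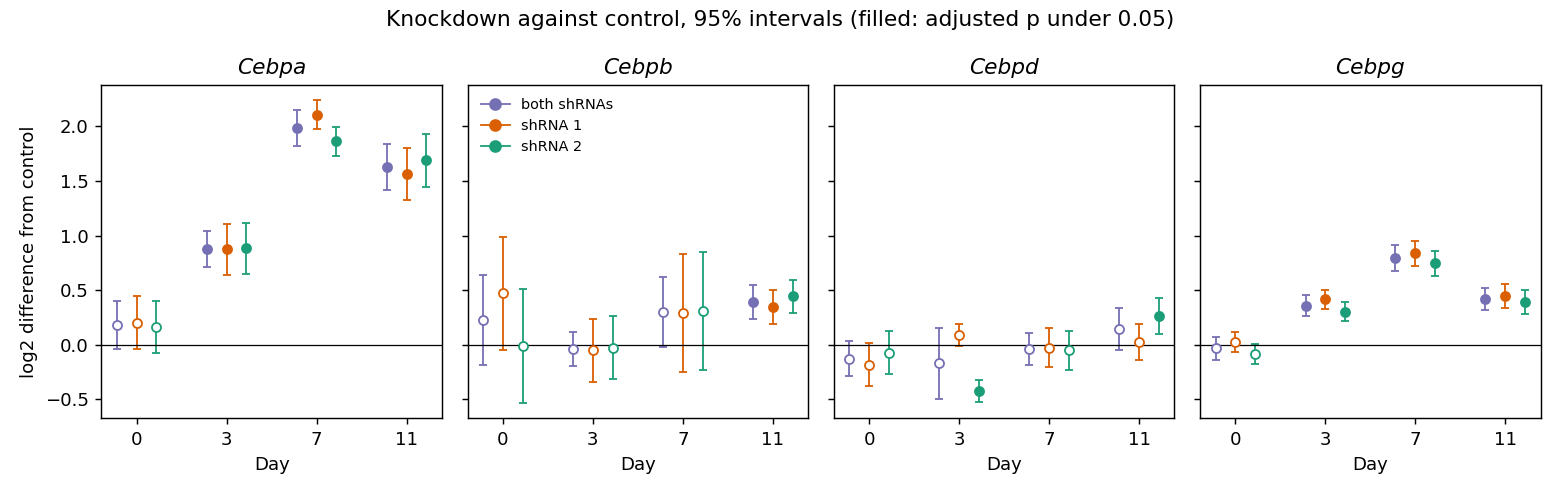
Log2 difference from control (y axis) of each C/EBP gene by day (x axis), for both shRNAs in 1 group (violet), shRNA 1 (orange) and shRNA 2 (green), with 95% intervals from limma and filled points at an adjusted p under 0.05. Cebpa rises from 0.18 at day 0 to 1.99 at day 7, Cebpg peaks at 0.79 at day 7, and the hairpins separate for Cebpd at day 3.

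Within knockdown cells the courses were fitted with the hairpin as a factor. Cebpa rose by 2.16 to day 3 (SE 0.12, adjusted p = 3.44e-10), by a further 1.29 to day 7 (SE 0.12, adjusted p = 1.62e-07), and fell by 1.29 to day 11 (SE 0.12, adjusted p = 4.39e-07). The knockdown mean at day 11 was 4.85 times that at day 0, against 1.68 times in control, and 3 of 4 members, all but Cebpd, were called between these days (70.1% of genes). Cebpg rose by 1.09 to day 3 (SE 0.04, adjusted p = 1.36e-15) and was near that level at day 7, at a difference of -0.08 (95% interval -0.16 to 0.01), before falling by 0.57 to day 11 (SE 0.04, adjusted p = 4.23e-10). Cebpb rose by 1.45 and then fell by 0.71, and Cebpd rose by 0.71 and 0.67 and then fell by 1.59, all 5 called. From day 0 to day 3 limma called 4 of 4 members in knockdown cells (75.1% of 13456 genes), from day 3 to day 7 it called 3 (71.6%), and from day 7 to day 11 it called 3 (55.2%).

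Ordered over the 8 groups of arm and day, Cebpa ran from 484 ± 78.3 normalized reads in day 0 control (SD, n = 4) to 6717 ± 860 in day 7 knockdown (SD, n = 4). Day 0 control overlapped day 0 knockdown at the bottom of that order, and day 3 knockdown overlapped day 11 knockdown at 2654 ± 368 and 2660.5 ± 394 (SD, n = 4 each); all other neighbours were apart. Cebpb ran from 5934 ± 1279 in day 0 control to 19991 ± 2187 in day 3 control (SD, n = 4 each), and its 1 gap in that order lay between the day 3 groups and the rest. Cebpd ran from 1577 ± 98.96 in day 11 control to 5672 ± 573 in day 7 control (SD, n = 4 each), with the 2 arms adjacent and overlapping on every day. Cebpg ran from 1998 ± 95.3 in day 0 knockdown to 4396 ± 236 in day 3 knockdown (SD, n = 4 each).

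To compare levels between members, normalized reads were divided by the exon length of each gene in GENCODE M21. On this scale Cebpb was the most abundant member in every group, from 3945 ± 851 normalized reads per kb in day 0 control to 13292 ± 1454 in day 3 control (SD, n = 4 each). On days 0, 3, 7 and 11 its share of the sum over the 4 genes was 77.1%, 86.0%, 71.0% and 85.9% in control. Cebpa had 3.63%, 3.45%, 6.94% and 3.96% of that sum in control on the same days.

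In knockdown cells the share of Cebpa on these days was 3.69% ± 0.523, 6.43% ± 0.461, 20.3% ± 1.75 and 9.26% ± 1.07 (SD, n = 4 each). Except at day 0, each range lay above that of control on the same day. Per length, Cebpa stood at 0.329 of Cebpb at day 7 in knockdown (range 0.289 to 0.367) and at 0.0985 in control (range 0.0819 to 0.129). The sum over the 4 genes was 12499 ± 787 per kb in day 7 knockdown and 8897 ± 1494 in day 7 control, with 10874 ± 639 and 7825 ± 607 in the same arms of day 11 (SD, n = 4 each).

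The annotated length matters most for Cebpd, which spans 3746 bases in GENCODE M21 and 2260 in RefSeq. With the RefSeq spans of Cebpb and Cebpd, the control share of Cebpd at day 7 was 25.7% in place of 17.2%, and that of Cebpb 63.6% in place of 71.0%. Opposite-strand neighbours overlap 20.7% of the exon bases of Cebpb (Tmem189, 838 to 2306 normalized reads per library) and 15% of those of Cebpd (Spidr, 760 to 3298). Whether the authors counted by strand is not given in the sources used here, so reads from the overlapping stretches cannot be told apart.

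**Figure D3:**
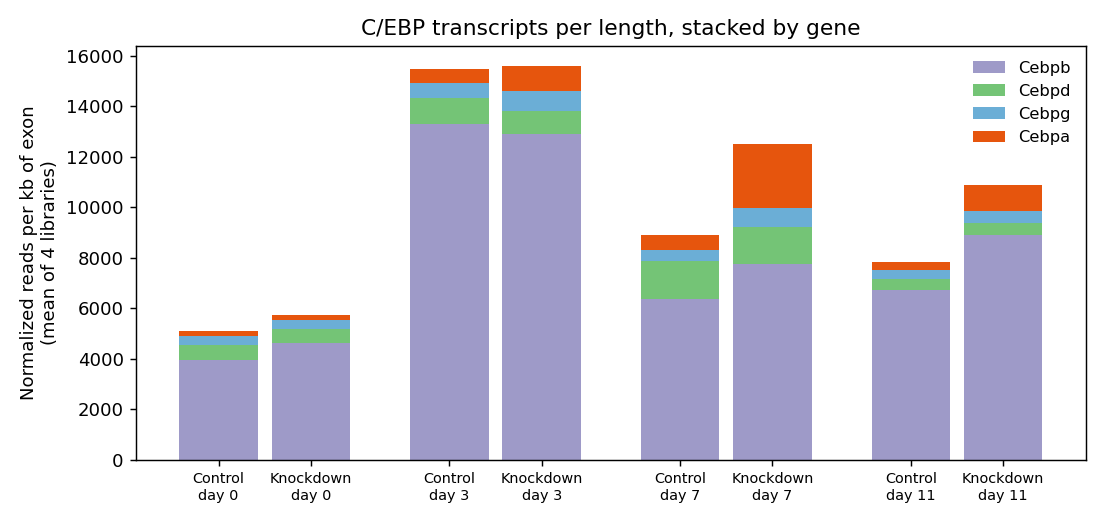
Mean normalized reads per kb of exon (y axis, linear, from 0; 4 libraries per bar) of the 4 C/EBP genes, stacked by gene, in control and knockdown cells on each day (x axis). Cebpb makes up most of every bar, and the Cebpa segment is tallest in day 7 knockdown, at 20.3% of the sum.

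The genes whose values over the 32 libraries were most like those of a member were named by the highest Pearson r among 12084 genes, as a description over points that share groups and days. For Cebpa they were Apmap (0.98), Pdhb (0.98) and Uqcrc2 (0.98), and for Cebpg they were Paip2b (0.99), Dld (0.98) and Zfp706 (0.97). For Cebpb they were Rnf149 (0.94), Fam136a (0.94) and Pithd1 (0.93), and for Cebpd Phka2 (0.97), Txndc5 (0.94) and Mertk (0.94). The most opposite genes were Tnrc18 for Cebpa (-0.97), Nlgn2 for Cebpg (-0.96), Slc25a24 for Cebpb (-0.94) and Tsc22d2 for Cebpd (-0.93). Among the members, r was 0.83 for Cebpa with Cebpg and 0.76 for Cebpb with Cebpg. It was 0.30 for Cebpb with Cebpd, the lowest of the 6 pairs.

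Adipocyte genes described as bound or induced by C/EBPs were higher in knockdown along with Cebpa. Of 15 on the list, 10 of 13, 13 of 14 and 13 of 14 tested were called higher on days 3, 7 and 11, with none lower, where 14.6%, 24.9% and 16.8% of all genes were called higher. The median difference of the list was 0.73, 1.57 and 1.40 on these days, beside 0.00, 0.01 and -0.01 over all genes tested. At day 0 the median was 0.00, and 1 of 13 was called, Lpl (0.19, SE 0.04, adjusted p = 0.0267), a lipase that releases fatty acids from lipoproteins.

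Slc2a4, the insulin-responsive glucose transporter, was higher by 0.79, 2.84 and 2.70 on those days, all called. Cidec, a lipid droplet protein, was higher by 2.01, 2.51 and 2.69, and Pparg, the nuclear receptor that acts with Cebpa, by 0.37, 1.17 and 1.15, all called. Klf5, a factor reported between early C/EBPs and Pparg, was not called on any day (from -0.24 to 0.11). Lep was under the filter on low values on every day, and Pck1 entered at days 7 and 11, so counts over tested genes do not cover the whole list.

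Adipocyte marker levels moved with these differences. The summed level of 7 adipocyte markers, all measured and 6 of them also on that list, was 45962 to 50010 normalized reads in control and 124194 to 193756 in knockdown at day 7, and 54172 to 64018 against 110974 to 137475 at day 11. This sum was already apart at day 0, at 19201 to 19756 in control and 21395 to 23005 in knockdown, most of it Lpl. At day 3 it was 24028 to 29153 against 39670 to 52695.5. For 7 preadipocyte or fibroblast markers the control sums on days 0, 3, 7 and 11 were 364113 to 379700, 144886 to 162263, 259272 to 284500 and 306390 to 351394. The knockdown sums were 299281 to 342412, 137554 to 179415, 203427 to 234712 and 233546 to 323459, below control at days 0 and 7 and overlapping it at days 3 and 11. Dlk1, Col1a1 and Col3a1 hold most of these sums. Taken singly, 3, 3, 5 and 5 of the 7 markers lay wholly below control on the 4 days. By a different measure, limma called 2.44%, 12.1%, 22.6% and 16.2% of all genes lower on these days. The share of all genes lying wholly below control was not computed. At day 11 the markers wholly below control were Dlk1, Pdgfra, Pdgfrb, Thy1 and Ly6a, and at day 3 Dlk1 lay wholly above control. Of 3 skeletal muscle markers Des alone is in the table, at 292 to 388 normalized reads in control and 544 to 666 in knockdown at day 7, and 261 to 306 against 497 to 567 at day 11; its part was not tested. The part of cell composition in the Cebpa and Cebpg differences was not tested. The macrophage sum at day 11, mostly from Cd68, was 209 to 308 in control and 313 to 639 in knockdown. Its members did not go 1 way. Cd68 had means of 44.9 in control and 101 in knockdown at day 7 and of 191 and 395 at day 11, whereas Lyz2 had 27.9 and 7.67, then 40.8 and 31.4. Csf1r had 22.5 and 27.8 at day 11, and Ptprc stayed at or under 3.04 normalized reads in all libraries. The endothelial markers summed to at most 46.7 in any library.

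Of 12 other C/EBP family and bZIP partner genes, 10 passed the filter on each day. At day 0 none was called higher and 4 lower, where 0.817% and 2.44% of all genes were. Of all day 0 calls 25.1% were higher, or 43.3% with libraries scaled to equal totals. The 430 genes called at day 0 were 111 to 157 without any 1 control library and 250 without shRNA 1 replicate 2, so the day 0 count depends on single libraries. Over the 8 fits without 1 library, Ddit3, Fos, Atf4, Egr2 and Lcn2 were called lower at day 0 in 8, Trib3 in 2, and Lpl was called higher in 2. Of the other genes on the 5 lists, Saa3 and Chac1 were called lower in 8, Sesn2 in 4 and C3 in 3. Klf4 was called lower in 2, Atf3, Hp and Ptgs2 in 1 each, and Ptx3 was called higher in 1. The 4 lower of the bZIP list were 3 to 4 over these fits. At days 3, 7 and 11 the counts were 4, 5 and 6 higher and 0, 1 and 1 lower, with 14.6%, 24.9% and 16.8% of all genes higher and 12.1%, 22.6% and 16.2% lower. The median was -0.24, 0.04, 0.34 and 0.28 on the 4 days.

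Ddit3, which encodes the C/EBP relative CHOP that holds other C/EBPs off their sites, differed by -0.34 at day 0 (SE 0.05, adjusted p = 0.00656). It was then higher by 0.36, 0.55 and 0.26 at days 3, 7 and 11 (SE 0.04, 0.07 and 0.05), all called. Fos, a partner in AP-1, changed the same way, from -0.60 at day 0 to 0.27, 0.60 and 0.70, and Atf4, which pairs with C/EBPγ, from -0.31 to 0.12, 0.33 and 0.33, all called. Jun was called at day 11 alone (1.10, SE 0.09, adjusted p = 9.05e-06). Cebpe, the granulocyte member of the family, was under the filter on every day.

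Among 20 regulators that act before or on C/EBPs, the counts higher and lower on days 0, 3, 7 and 11 were 0 and 3, 2 and 5, 7 and 4, and 6 and 3, with a median of -0.05, 0.01, 0.11 and 0.11. Of all genes tested, 0.817% and 2.44%, 14.6% and 12.1%, 24.9% and 22.6%, and 16.8% and 16.2% were called higher and lower on these days. The 3 lower at day 0 were 1 with no filter and 1 to 3 over fits without single libraries. Egr2 (Krox20), an early activator of Cebpb, had the widest swing: -0.85, -0.17, 1.93 and 0.97 on the 4 days (SE 0.11, 0.05, 0.13 and 0.13), all called. Crem, a cAMP-responsive factor, was higher by 0.42, 0.56 and 0.40 at days 3, 7 and 11, all called. Trib2, a pseudokinase that directs C/EBPα to degradation, was lower by log2 differences of -0.26, -0.21 and -0.64 on these days, all called, whereas its relative Trib1 was called higher at days 7 and 11 (0.33 and 0.49). Creb1, Stat5b, Zfp423 and Ncor1 were not called on any day (-0.12 to 0.27).

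Acute-phase and inflammatory genes described as targets of C/EBPβ and C/EBPδ went in both directions. Of 10, the counts higher and lower on the 4 days were 0 and 3, 1 and 4, 3 and 4, and 3 and 3, with a median of -0.30, -0.28, -0.11 and 0.04. Over fits without single libraries, 0 to 1 were called higher and 2 to 4 lower at day 0. The shares of all genes called higher and lower were 0.817% and 2.44%, 14.6% and 12.1%, 24.9% and 22.6%, and 16.8% and 16.2%. Lcn2, an iron-siderophore binding protein, was lower on all 4 days by -0.73, -0.73, -0.48 and -0.63 (SE 0.06, 0.16, 0.06 and 0.07), all called. Hp, which encodes haptoglobin, was lower at day 3 (-0.51, SE 0.05) and higher at day 7 (0.99, SE 0.06), both called. Ptgs2, a prostaglandin synthase, was called at day 3 alone (0.87, SE 0.07, adjusted p = 9.94e-07).

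Of 10 amino acid response genes described as driven by ATF4 with C/EBPγ, the counts higher and lower on the 4 days were 0 and 3, 6 and 1, 5 and 1, and 3 and 1. The 3 lower at day 0 were 2 with no filter and 1 to 3 over fits without single libraries. The median was -0.23, 0.20, 0.18 and 0.12, and 0.817% and 2.44%, 14.6% and 12.1%, 24.9% and 22.6%, and 16.8% and 16.2% of all genes were called higher and lower. Slc7a5, a large neutral amino acid transporter, was higher by 0.58 at day 3 (SE 0.06) and 1.29 at day 7 (SE 0.08), both called. Trib3, an ATF4 target that is also on the list of regulators, differed by -0.50 at day 0 and by 0.51, 0.77 and 0.75 later, all called. Slc7a11, the cystine transporter, was the 1 gene of the list called lower at days 3, 7 and 11, at -0.38, -0.48 and -1.25.

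**Figure D4:**
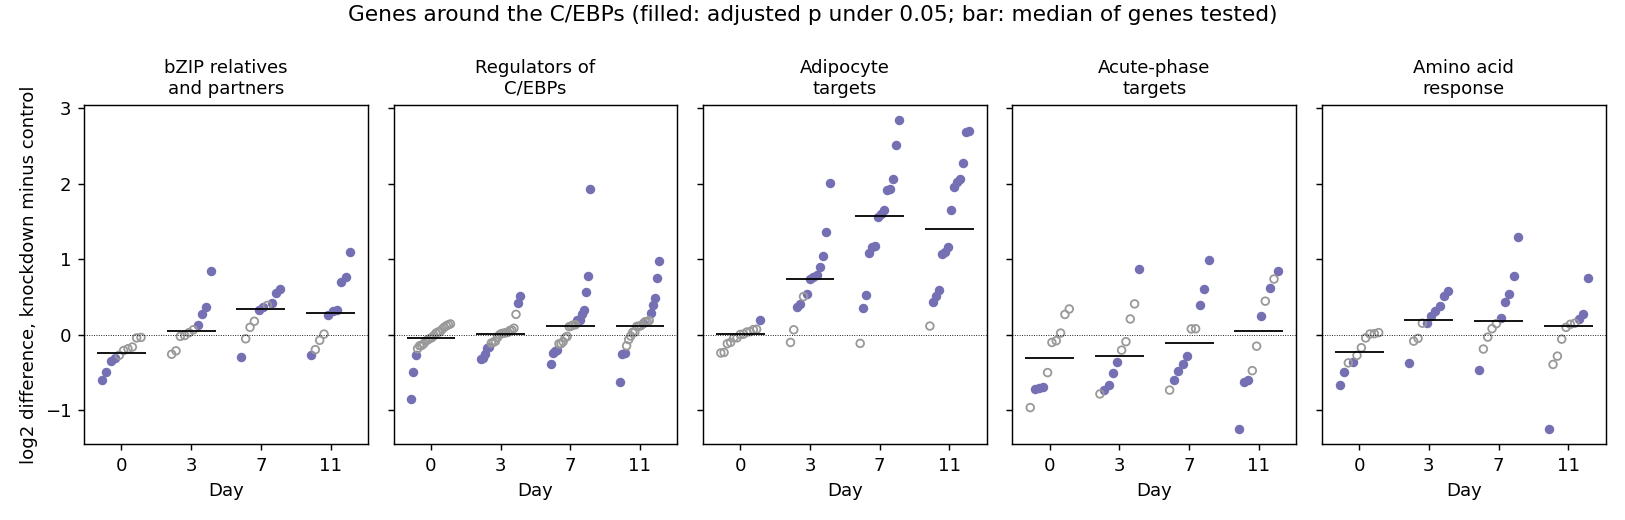
Log2 difference, knockdown minus control (y axis), of the genes tested on each of the 5 lists by day (x axis), filled at an adjusted p under 0.05, with a bar at the list's median. The adipocyte targets have medians of 0.73, 1.57 and 1.40 at days 3, 7 and 11, and the other lists hold called genes on both sides of 0 at days 7 and 11.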

How the data were processed

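The deposited table gives log2 values per gene and library, made by the authors in a form that fits a regularized log transform, which draws genes with few reads towards their mean. Per the submitters' processing notes the tools included TopHat2 2.1.0, Bowtie2 2.2.6, SAMtools 1.3.1 and HTSeq 0.6.1; roles, transform, strand, build and annotation are not given in the sources used here. Libraries were made with a TruSeq RNA kit, per the labels' protocols. Groups came from sample titles. Inverting the transform gave whole reads (within 0.1) for 99.3% of values, 20% being expected by chance, and for 95.3% of the 128 member values.

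The deposited values were tested as they stand, with no pseudocount, by limma 3.58.1 (R 4.3.3; trend and robust empirical Bayes), Benjamini-Hochberg adjusted over all genes tested; adjusted p-values in the text are limma's. Genes entered a fit with 10 or more on the unlogged scale (2 raised to the value) in 4 libraries, or in 2 for fits with 3 groups. Contrasts were knockdown against control per day (8 libraries), each shRNA per day, days within control and within knockdown (16 each, hairpin as a factor in the latter), and the change of the knockdown effect between days (32). The fit was tested on simulated data. Positions and exon lengths are from GENCODE M21 (GRCm38), where 20521 of 20560 IDs matched; the build of the files may differ. Alternatives were other filters, equal totals, no trend, all libraries in 1 fit, separate shRNA groups, a replicate block, voom on rebuilt reads and leaving out libraries; RefSeq spans and the 4 short motifs were added after seeing the data. The named genes are the members, Zbtb9, the 5 lists, cell type markers and, per member, the 3 genes of highest and the 1 of lowest r, without predicted genes; members and lists were chosen with earlier results of these data known. Deviations of same-numbered libraries of a day correlated weakly (median 0.042, against -0.011 for different numbers), and numbers were not taken as pairs.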

Additional observations from a re-analysis of the deposited data

Results flagged for a closer look

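The difference between shRNA 2 and shRNA 1 was called by limma for Cebpd at day 3 (-0.51) and for Cebpa at day 7 (-0.24). These 2 values flag a disagreement between hairpins against the same gene, each with 2 libraries. The knockdown effect itself differed between days, by interaction terms, for Cebpa from day 0 to day 3 (0.70) and from day 3 to day 7 (1.11). For Cebpg it differed from day 0 to day 3 (0.39), from day 3 to day 7 (0.43) and from day 7 to day 11 (-0.37). In the control group of Cebpg at day 11, replicate 2 was the highest library and stood apart from the other 3, its gap to the nearest being 0.831 of the range of the group, just over Dixon's critical value for 4 samples. Chance flags about 1 in 20 such groups, and 32 groups were examined.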

How the results depend on the processing

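Over 57 called member differences, 1208 of 1221 alternatives kept the direction and the call, and the size stayed within 1.5 times except for Cebpa between hairpins at day 7. That value of -0.24 was not called with no filter, with no trend and not robust, or with all libraries fitted together (adjusted p = 0.113, 0.175 and 0.305), and ran from -0.38 to -0.11 over fits without single libraries, not called without replicate 1 of either hairpin. Cebpa in control from day 3 to 7 lost its call with no trend (0.19, adjusted p = 0.0554) and with all libraries fitted together (0.19, adjusted p = 0.102), ranging from 0.16 to 0.21 without single libraries. Cebpd with shRNA 2 at day 11 lost it with no trend (0.27, adjusted p = 0.0634), with 0.19 to 0.34 without single libraries. Calls were gained for Cebpd at day 3 with separate shRNA groups (-0.17) and in knockdown from day 0 to 11 at equal totals (-0.31, adjusted p = 0.047).

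Leaving out single libraries added calls or turned the sign of values that were not called. The ranges were, between hairpins, -0.092 to 0.0070 (day 0), -0.17 to 0.19 (day 3) and -0.12 to 0.37 (day 11) for Cebpa, -0.067 to 0.12 (day 3) and -0.071 to 0.12 (day 7) for Cebpb, and -0.14 to 0.087 (day 7) and 0.10 to 0.39 (day 11) for Cebpd. For shRNA 1 against control they were 0.11 to 0.28 for Cebpa (day 0), -0.13 to 0.019 for Cebpb (day 3), and -0.24 to -0.13 (day 0), -0.14 to 0.084 (day 7) and -0.12 to 0.16 (day 11) for Cebpd. For shRNA 2 they were -0.11 to 0.085 (day 0) and -0.12 to 0.068 (day 3) for Cebpb and -0.11 to 0.0039 (day 7) for Cebpd. For both hairpins they were -0.084 to 0.018 (day 3) and 0.15 to 0.39 (day 7) for Cebpb, and -0.099 to 0.016 (day 7) and 0.078 to 0.23 (day 11) for Cebpd, called at day 11 without shRNA 1 replicate 2. Between days they were -0.047 to 0.19 for Cebpb in control (day 7 to 11), -0.022 to 0.021 for Cebpg in control (day 0 to 11), -0.10 to -0.051 for Cebpg in knockdown (day 3 to 7), and for the knockdown effect -0.15 to 0.049 for Cebpd (day 0 to 3) and -0.45 to -0.26 for Cebpa (day 7 to 11). Equal totals turned the sign for Cebpa (day 3, -0.0062) and Cebpd (day 7, 0.015) between hairpins, Cebpb with shRNA 2 (day 0, 0.010) and Cebpd with shRNA 1 (day 11, -0.0069), and voom for Cebpa between hairpins (day 3, -0.00039), none of them called.

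Numbers were not taken as pairs. Deviations of same-numbered libraries of a day correlated at -0.0052 to 0.215 (median 0.042, 3 of 24 over 0.1). Those of different numbers correlated at -0.215 to 0.1395 (median -0.011, 1 of 56 over 0.1). Same numbers thus correlated slightly more, and a weak link is not excluded. With a replicate block, Cebpb at day 7 was called (0.52, and 0.51 and 0.53 for shRNA 1 and 2), as was Cebpd with shRNA 1 at day 0 (-0.19) and day 3 (0.14). With that replicate block Cebpd with shRNA 2 at day 11 was not (0.21), and signs turned for Cebpd at day 7 (0.058, and 0.070 and 0.046 for shRNA 1 and 2), Cebpd with shRNA 1 at day 11 (-0.039), Cebpb with shRNA 2 at day 0 (0.017) and Cebpg at day 0 (0.010). Under the block, genes called by limma at days 0, 3, 7 and 11 numbered 0, 845, 4112 and 1652, with 1067 at an unadjusted p under 0.05 at day 0. Separate shRNA groups gave 3331 at day 0 and 5317 at day 3, and no trend gave 261 at day 0. The day 0 count of 430 ran from 111 to 562 over fits without single libraries, and was 250, 129, 115, 111 and 157 without shRNA 1 replicate 2 and control replicates 1 to 4. The cause was not tested. Depth was not varied in any fit. The members had 456 to 21502 reads per library, and Zbtb9 had 0 to 23.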
